A study of Homo sapiens with 8 samples.

Results

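The genes described here encode receptors and ligands of the VEGF and angiopoietin pathways, the growth factor systems that act mainly on the endothelial cells lining blood and lymph vessels. They were taken as a list of 10 gene symbols, whose rule uses no measured value but which was drawn up with earlier results of these data known. Of these, 9 were analysed among the 16153 genes of the table. The VEGF receptors KDR, FLT1 and FLT4, the co-receptors NRP1 and NRP2, and the Tie receptors TEK and TIE1 make up 7 of them. The other two are the ligands VEGFA and VEGFC. ANGPT2 was not analysed here. All 9 passed the filter on low values, which kept 16103 genes.

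RNA was sequenced from HMEC-1, a line of human dermal microvascular endothelial cells immortalised with the SV40 large T antigen. Cells labelled space_microg (3 libraries) were kept weightless in an incubator of the Columbus module on the International Space Station. Cells labelled space_1g (2 libraries) flew with them but sat in the incubator's centrifuge at 1 g, so both flight groups shared launch, stay in orbit and return. Cells labelled ground (3 libraries) were kept in a facility of the home laboratory and received their medium changes at the same time as the flight cells. All groups grew on gelatin-coated coverslips in medium with serum, hydrocortisone and EGF, and the labels name no added VEGF or angiopoietin. The comparisons separate weightlessness in flight (space_microg against space_1g), flight with gravity restored (space_1g against ground) and flight as a whole (space_microg against ground). All cells are of 1 immortalised line, and the labels do not say whether libraries of a group came from separate cultures, so the p-values given here cover no more than the library-to-library spread, which may be technical.

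KDR (VEGF receptor 2) is the main signalling receptor for VEGFA in blood vessel endothelium, where it drives proliferation, migration and permeability. FLT1 (VEGF receptor 1) binds VEGFA more tightly but signals weakly, and its soluble form acts as a decoy. FLT4 (VEGF receptor 3) binds VEGFC and is best known in lymphatic endothelium, while NRP1 and NRP2 are co-receptors that present VEGF ligands and also bind class 3 semaphorins. TEK (Tie2) is the receptor for the angiopoietins and holds vessels quiescent when ANGPT1 activates it, and TIE1 is a related receptor with no high-affinity ligand of its own that pairs with TEK.

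The windows just upstream of the first annotated start of KDR, TEK, TIE1 and FLT1 are shown because these receptors are among those that carry the differences described later. NRP2, whose space_microg libraries also lay below all ground libraries, is not shown. Fewer than 100 bases of its window lay before the first annotated start. The sequences are from RefSeq, build GRCh38.p14, which had a promoter entry for 6 of the 9 genes. They run 5′ to 3′ on the strand of the gene. Capitals mark matches, on either strand, to 3 strings of letters, namely the ETS core GGAA, the Sp1 box GGGCGG and the cyclic AMP response element TGACGTCA, and no base belongs to 2 of them. The windows lie at chr4:55125596-55125845 (minus strand) for KDR, chr9:27108975-27109140 (plus strand) for TEK, chr1:43300732-43300981 (plus strand) for TIE1 and chr13:28495146-28495378 (minus strand) for FLT1.
KDR: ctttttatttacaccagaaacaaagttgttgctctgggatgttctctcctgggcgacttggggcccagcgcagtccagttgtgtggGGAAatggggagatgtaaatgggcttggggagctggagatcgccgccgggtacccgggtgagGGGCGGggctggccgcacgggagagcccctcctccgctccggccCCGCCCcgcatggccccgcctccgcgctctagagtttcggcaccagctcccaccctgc
TEK: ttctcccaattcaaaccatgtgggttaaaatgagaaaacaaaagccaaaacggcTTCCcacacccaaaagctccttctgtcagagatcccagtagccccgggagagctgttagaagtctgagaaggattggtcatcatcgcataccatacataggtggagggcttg
TIE1: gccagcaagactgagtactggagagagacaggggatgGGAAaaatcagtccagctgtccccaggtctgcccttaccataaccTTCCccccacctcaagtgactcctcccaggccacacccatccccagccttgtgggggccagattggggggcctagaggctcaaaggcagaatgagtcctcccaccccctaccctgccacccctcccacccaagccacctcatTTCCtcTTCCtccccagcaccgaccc
FLT1: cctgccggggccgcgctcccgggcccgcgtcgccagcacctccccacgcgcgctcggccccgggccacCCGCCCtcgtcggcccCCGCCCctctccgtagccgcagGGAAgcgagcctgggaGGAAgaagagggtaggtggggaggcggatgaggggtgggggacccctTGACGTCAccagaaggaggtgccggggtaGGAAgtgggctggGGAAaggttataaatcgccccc
The KDR window, of 250 bases, held 1 ETS core and 2 Sp1 boxes. The TEK window, of 166 bases, held 1 ETS core and no Sp1 box. The TIE1 window, also of 250 bases, held 4 ETS cores and no Sp1 box. The FLT1 window, of 233 bases, held 4 ETS cores, 2 Sp1 boxes and 1 cyclic AMP response element. The short ETS core is common: 92.7% of 35116 promoter windows of 250 bases held it at least once, 91.4% of those of 233 bases and 83.4% of those of 166 bases. The Sp1 box stood in 42.6%, 40.4% and 28.8% of windows of those 3 lengths. Of the letters searched, the cyclic AMP response element was the rare one, in 1.46% of windows of 233 bases. A match is a run of letters and not a measured binding site.

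Between 24248964 and 35388757 reads per library fell in the listed genes, so that a count of 0 would allow up to 0.0855 to 0.12 CPM, for counting error alone. The least covered of the 9 genes, VEGFC and FLT4, had 213 to 352 and 200 to 559 reads a library, and the most covered, TIE1, had 7264 to 15729. The unit, called CPM in the labels, is a gene's reads scaled for the size of the library, though the columns do not sum to the same total. The first principal component of all genes, with 61.9% of the variance, set apart space_1g replicate 1 (score 60.7) and ground replicate 3 (score 64.7) from the other 6 libraries (scores of -31.1 to 1.51). In those 2 libraries the mean standardised level of 25 mitosis genes was -1.86 and -1.19 (0.188 to 0.627 elsewhere), that of 25 p53 targets was 1.47 and 1.11 (-1.03 to 0.196 elsewhere) and that of 25 interferon-induced genes was 1.32 and 1.47 (-0.973 to 0.489 elsewhere). For the members, the blood vessel markers and the lists of pathway genes and their regulators, differences are therefore also given without these 2 libraries. Such a fit leaves space_1g with 1 library, replicate 2. In that fit 50.7% of all genes were below 0 in space_microg against ground. It was 48.9% in space_1g against ground and 50.8% in space_microg against space_1g. The medians over all genes were then -0.0044, 0.0085 and -0.0036.

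All 23 blood vessel markers checked against the endothelial label were in the table, among them PECAM1 at 201 to 367 CPM and CDH5 at 268 to 579 CPM. Summed over the 19 of them that are not members, their level was 1354 to 2160.3 CPM in space_microg, 1540.3 and 1597 CPM in space_1g, and 1653 to 2465 CPM in ground. Of those 19 markers, 7 (CLEC14A, ROBO4, EMCN, CD34, MMRN1, MMRN2 and ERG) were lower in both libraries that stand apart than in all 6 others, as were 21.5% of all genes, and 2 (CLDN5 and NOS3) were higher in both, as were 23.6% of all genes. MMRN1 reached 0.123 CPM in ground replicate 3. Relative to ground, 13 of the 19 were lower in space_microg (53% of all genes), with a median log2 difference of -0.37. In space_1g 17 of 19 were lower than in ground (48.8% of all genes), with a median of -0.40. Without the libraries that stand apart it was 18 and 19 of 19 (the second with 1 space_1g library), with medians of -0.50 and -0.58. Between the flight groups 8 of 19 were lower in space_microg (53.4% of all genes), with a median of 0.17. Without those libraries it was 5 of 19, with a median of 0.18. Leukocyte markers were few: of 8 only CD14 was analysed, at 1.04 to 2.88 CPM. The highest markers of other cells were KRT18 (epithelial) at 225 to 333 CPM, CSPG4 (pericyte) at 92.3 to 326 CPM and COL1A1 (fibroblast) at 90.5 to 228 CPM. Fibroblast markers (4 of 8) summed to 142 to 290.2 CPM in space_microg, 105 and 304 CPM in space_1g and 158 to 244 CPM in ground. Pericyte and smooth muscle markers (7 of 9) summed to 193 to 273 CPM in space_microg, 299 and 467 CPM in space_1g and 259.5 to 559 CPM in ground. Epithelial markers (4 of 9) summed to 282 to 391 CPM in space_microg, 307 and 311 CPM in space_1g and 271 to 408 CPM in ground. The part of these marker levels in the results was not tested. In bulk RNA, fewer cells of a type and less RNA per cell cannot be told apart.

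Tie receptors and KDR dominated. Per kilobase of annotated exon, TIE1 averaged 48.7 CPM per kb over the 8 libraries (31.8 to 72.0) and TEK 47.7 CPM per kb (33.1 to 64.3). KDR followed at 22.3 CPM per kb (15.1 to 29.6), and then the co-receptors NRP1 at 13.2 CPM per kb (10.3 to 17.0) and NRP2 at 7.49 CPM per kb (5.20 to 9.95). The remaining 4 genes were several times lower than KDR: VEGFC at 3.72 CPM per kb (2.57 to 4.46), FLT1 at 3.56 CPM per kb (1.46 to 7.46), VEGFA at 2.61 CPM per kb (1.20 to 6.19) and FLT4 at 1.18 CPM per kb (0.853 to 1.94). The ranges of TEK and KDR, of NRP1 and NRP2, and of NRP2 and VEGFC did not overlap. TIE1 exceeded TEK in 5 of 8 libraries and VEGFC exceeded FLT1 in 5 of 8, so these neighbours did not differ beyond their spread. KDR exceeded NRP1, FLT1 exceeded VEGFA, and VEGFA exceeded FLT4 in 8 of 8 libraries each, although their ranges overlapped. By the length of the longest transcript in place of all exons, NRP1 ranked above KDR and FLT1 above VEGFC.

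**Figure D1:**
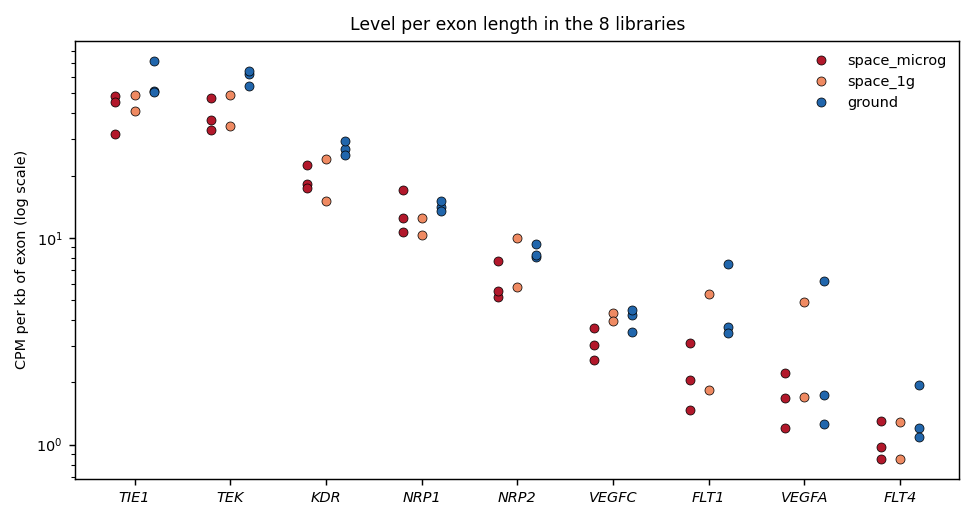
Level of the 9 genes in CPM per kilobase of annotated exon, on a log scale, ordered by their mean over the 8 libraries. Each point is 1 library, in the order space_microg, space_1g and ground within each gene. TIE1 and TEK sit at the top with overlapping points, and FLT4 at the bottom between 0.853 and 1.94 CPM per kb.

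Flight libraries had lower levels of the endothelial receptors KDR, TEK and TIE1 than ground libraries, and none of these differences passed the test across all genes. In space_microg against ground, all 9 members had a difference below 0, as had 53% of the 16103 genes tested. For 5 of them (FLT1, KDR, NRP2, TEK and TIE1) every space_microg library lay below every ground library, a pattern that held for 6.53% of all genes. In space_1g against ground, 7 of 9 were below 0, against 48.8% of all genes, and 4 of 9 (KDR, NRP1, TEK and TIE1) did not overlap, against 5.73% of all genes. KDR, TEK and TIE1 were thus lower in all 5 flight libraries than in all 3 ground libraries, which was so for 2.23% of all genes. Both flight comparisons share the 3 ground libraries, so the second is no separate check of the first.

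With limma and Benjamini-Hochberg adjustment at 0.05, 0 of 9 members passed in any of the 3 comparisons, and 0% of all genes passed in each. For space_microg against ground, 3 members (FLT1, KDR and TEK) had an unadjusted limma p under 0.05 and all 3 were lower, against 2.27% of all genes in that direction and 4.32% in either. edgeR on the recovered reads gave 2 such members (FLT1 and TEK), against 4.6% of all genes, and DESeq2 gave 3, against 5.41%. After adjustment edgeR passed 0 members and 0% of all genes, and DESeq2 passed 0 members and 0.0186% of all genes. For space_1g against ground, 2 members (KDR and TEK) had an unadjusted limma p under 0.05 and both were lower, against 0.826% of all genes in that direction and 1.55% in either. TEK alone remained so with edgeR (1.41% of all genes) and DESeq2 (2.03%). For the flight groups against each other, 0 members had an unadjusted p under 0.05 with limma (1.32% of all genes, 0.621% being lower), edgeR (1.37%) or DESeq2 (2.11%).

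**Figure D2:**
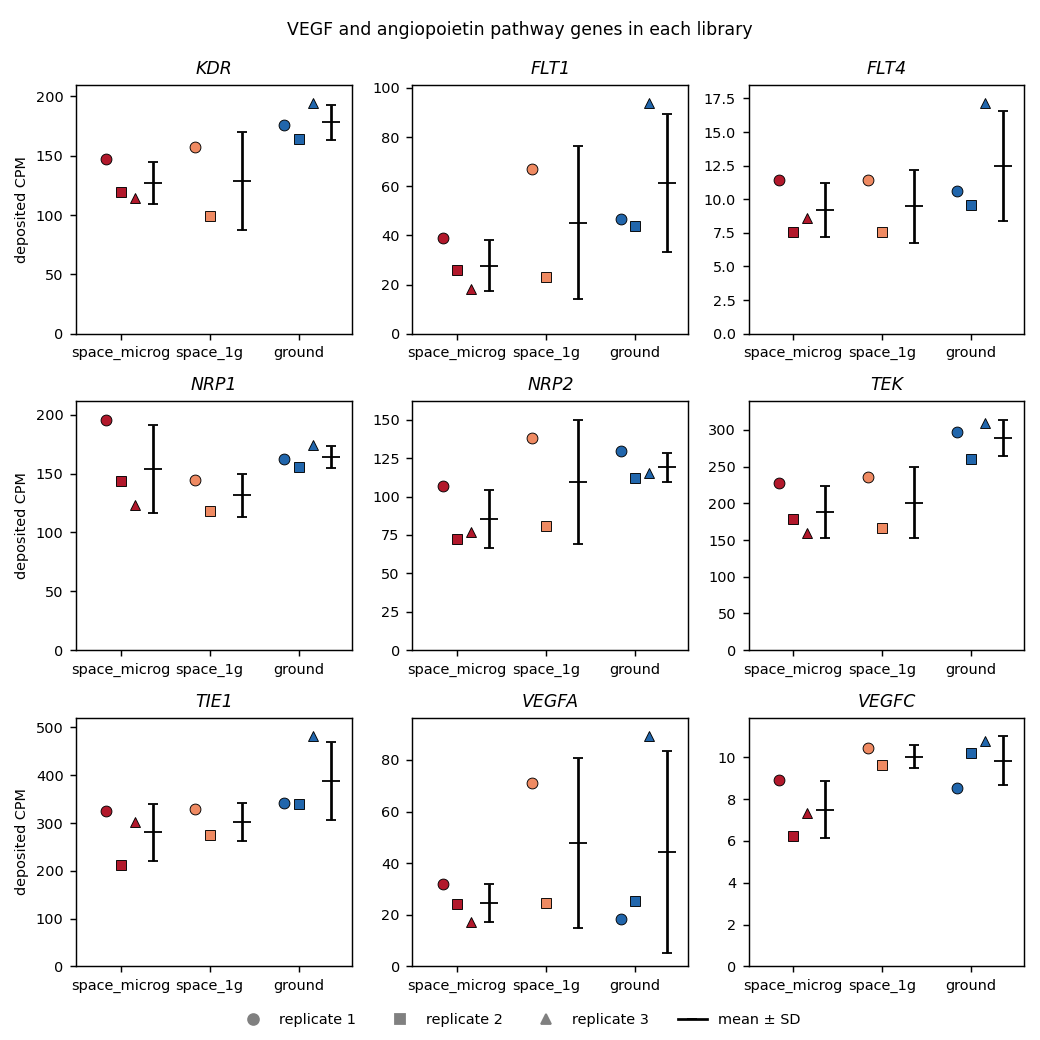
Deposited CPM of the 9 genes in each library, on axes that start at 0. Points are libraries, with the replicate number as shape, and the black marks are the mean ± SD of each group (n = 3, 2 and 3). All 3 ground points lie above all 5 flight points for KDR, TEK and TIE1, while the points of VEGFA and FLT4 overlap between groups.

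Among the VEGF receptors, KDR was the one whose 5 flight libraries all lay below ground. KDR (chr4:55078259-55125595, minus strand, GRCh38, as are all gene positions given) had 147.5, 119.7 and 114.2 CPM in space_microg, and 157.5 and 99.2 CPM in space_1g, against 175.9, 164.4 and 194.1 CPM in ground. The highest flight library, space_1g replicate 1, stayed below the lowest ground library. The log2 difference from ground was -0.49 ± 0.20 for space_microg (SE; limma unadjusted p = 0.0355, adjusted p = 0.866) and -0.50 ± 0.22 for space_1g (limma unadjusted p = 0.0485, adjusted p = 1.00). Means were 127 ± 17.8 CPM in space_microg (SD, n = 3) and 128 ± 41.2 CPM in space_1g (SD, n = 2), against 178 ± 15.0 CPM in ground (SD, n = 3). The space_1g value depended on the library, since it was -0.17 when replicate 2 was left out and -0.84 when replicate 1 was.

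FLT1, the decoy-like VEGFA receptor, had the widest spread of the receptors. FLT1 (chr13:28300344-28495145, minus strand) had 39.0, 25.8 and 18.4 CPM in space_microg, and 67.2 and 23.1 CPM in space_1g, against 46.6, 43.7 and 93.7 CPM in ground. The 3 space_microg libraries lay below all ground libraries, whereas space_1g replicate 1 lay between ground libraries and space_1g replicate 2 below them. The log2 difference of space_microg from ground was -1.09 ± 0.45 (SE; limma unadjusted p = 0.0398, adjusted p = 0.866), the largest of the 9 genes in size and with the widest interval of the receptors (-2.12 to -0.06, 95%). It was -0.75 once the 2 libraries standing apart were left out. For space_1g it was -0.53 ± 0.50 (SE), and it turned to 0.22 without space_1g replicate 2. The counts are per gene, so soluble and membrane forms of FLT1 were not separated.

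FLT4, the VEGFC receptor, was the scarcest. FLT4 (chr5:180601506-180649624, minus strand) had 11.5, 7.56 and 8.59 CPM in space_microg, and 11.4 and 7.55 CPM in space_1g, against 10.6, 9.60 and 17.1 CPM in ground. The groups overlapped, with ground replicate 3 above all others. The log2 difference from ground was -0.38 ± 0.28 in space_microg and -0.34 ± 0.31 in space_1g (SE), and the first was -0.14 without ground replicate 3. Of the lymphatic markers, 3 of 7 (PDPN, FLT4 and NRP2) were analysed, and PDPN, a membrane glycoprotein of lymphatic endothelium, had 58.6 to 83.2 CPM in space_microg, 101 and 62.3 CPM in space_1g and 76.2 to 120.1 CPM in ground.

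The co-receptors differed in which libraries overlapped. NRP2 (chr2:205681990-205798133, plus strand) had 107, 72.3 and 77.2 CPM in space_microg, and 138 and 80.8 CPM in space_1g, against 129.8, 112 and 115 CPM in ground. Its 3 space_microg libraries lay below all ground libraries, and the space_1g libraries fell on either side of them. The log2 difference was -0.49 ± 0.23 for space_microg against ground (SE; limma adjusted p = 0.866) and -0.17 ± 0.26 for space_1g against ground (SE), the second turning to 0.22 without space_1g replicate 2. NRP1 (chr10:33177492-33336262, minus strand) had 195.9, 143.9 and 123 CPM in space_microg, and 144.6 and 119 CPM in space_1g, against 162.9, 156 and 174 CPM in ground. Here space_microg replicate 1 was the highest of all 8 libraries, so the groups overlapped, while both space_1g libraries lay below ground. The log2 difference was -0.12 ± 0.19 for space_microg and -0.32 ± 0.21 for space_1g against ground (SE), and that of space_microg turned to 0.03 without space_microg replicate 3. Exons of NRP1, NRP2 and VEGFA overlap antisense genes, and how the counting treated strand is not stated in the sources used here, so reads of either strand cannot be told apart for these genes.

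TEK had the difference with the smallest p of the 9 genes. TEK (chr9:27109141-27230175, plus strand) had 227.8, 178 and 159 CPM in space_microg, and 235.3 and 167 CPM in space_1g, against 297.1, 261 and 309 CPM in ground. Every flight library lay below every ground library, with the gap between space_1g replicate 1 and ground replicate 2. Means were 188 ± 35.5 CPM in space_microg (SD, n = 3) and 201 ± 48.3 CPM in space_1g (SD, n = 2), against 289 ± 25.0 CPM in ground (SD, n = 3). The log2 difference from ground was -0.63 ± 0.19 for space_microg (SE; 95% interval -1.06 to -0.19; limma unadjusted p = 0.0101, adjusted p = 0.866) and -0.54 ± 0.21 for space_1g (SE; 95% interval -1.03 to -0.05; limma unadjusted p = 0.0342, adjusted p = 1.00). With limma array weights, which count each library by its fit to its group, TEK passed in space_microg against ground (log2 difference -0.57, adjusted p = 0.0335), as did 3.82% of all genes, while its adjusted p over all alternatives ran up to 0.999.

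TIE1 (chr1:43300993-43323108, plus strand) had 325.6, 213.1 and 302.5 CPM in space_microg, and 329.8 and 274 CPM in space_1g, against 342.5, 339 and 482 CPM in ground. The groups did not overlap, but space_1g replicate 1 nearly reached ground replicate 2, and ground replicate 3 stood well above the rest. The log2 difference from ground was -0.47 ± 0.22 for space_microg (SE; limma unadjusted p = 0.0593, adjusted p = 0.866) and -0.35 ± 0.24 for space_1g (SE; limma adjusted p = 1.00). For space_microg it was -0.30 without ground replicate 3, and -0.24 after correction of each library for GC content and transcript length. These properties explained 54.4% of the deviation of space_microg replicate 2, the lowest TIE1 library, against 2.41% to 21.5% in the others.

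Of the ligands, VEGFA, the main growth factor for KDR and FLT1, was high in the 2 libraries that stand apart and showed no group pattern otherwise. VEGFA (chr6:43770184-43786487, plus strand) had 32.0, 24.2 and 17.3 CPM in space_microg, and 71.0 and 24.5 CPM in space_1g, against 18.2, 25.2 and 89.3 CPM in ground. The values of 71.0 CPM in space_1g replicate 1 and 89.3 CPM in ground replicate 3 were above all 6 others. The log2 difference from ground was -0.52 ± 0.59 for space_microg and 0.26 ± 0.66 for space_1g (SE). Without both of those libraries they were 0.14 and 0.18. VEGFC, the ligand of FLT4, was low throughout. VEGFC (chr4:176683538-176792727, minus strand) had 8.92, 6.21 and 7.31 CPM in space_microg, and 10.4 and 9.63 CPM in space_1g, against 8.52, 10.2 and 10.8 CPM in ground. The log2 difference was -0.36 ± 0.21 for space_microg and 0.03 ± 0.23 for space_1g against ground (SE).

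A further pair of ligands of the family, named here for their role after their values were seen, showed no group pattern either. VEGFB, a ligand of FLT1, had 34.2, 25.4 and 46.4 CPM in space_microg, and 27.7 and 35.0 CPM in space_1g, against 39.1, 36.8 and 30.3 CPM in ground. PGF (placental growth factor), also a ligand of FLT1, had 72.5, 32.3 and 60.6 CPM in space_microg, and 146 and 47.8 CPM in space_1g, against 55.0, 61.3 and 152 CPM in ground. PGF was, like VEGFA, highest in space_1g replicate 1 and ground replicate 3.

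In space_microg against space_1g, the comparison for weightlessness in flight, KDR and TEK had nearly the same mean level, within wide intervals. KDR averaged 127 CPM in space_microg and 128 CPM in space_1g (log2 difference 0.02 ± 0.22, SE; 95% interval -0.48 to 0.51). TEK averaged 188 CPM in space_microg and 201 CPM in space_1g (log2 difference -0.09 ± 0.21, SE; 95% interval -0.58 to 0.40). These intervals reach sizes close to the differences of the flight groups from ground. VEGFC was the 1 member of 9 whose groups did not overlap, being lower in space_microg (7.48 ± 1.36 CPM, SD, n = 3) than in space_1g (10.0 ± 0.570 CPM, SD, n = 2), as were 6.91% of all genes. Its log2 difference was -0.39 ± 0.23 (SE; limma adjusted p = 0.912). Differences were -0.56 ± 0.50 for FLT1, -0.79 ± 0.66 for VEGFA and -0.32 ± 0.26 for NRP2 (SE). Without space_1g replicate 1 those of FLT1 and NRP2 turned to 0.19 and 0.06, and that of VEGFA was -0.04. Differences were -0.12 ± 0.24 for TIE1, -0.03 ± 0.31 for FLT4 and 0.21 ± 0.21 for NRP1 (SE), and 7 of 9 members were below 0, against 53.4% of all genes.

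**Figure D3:**
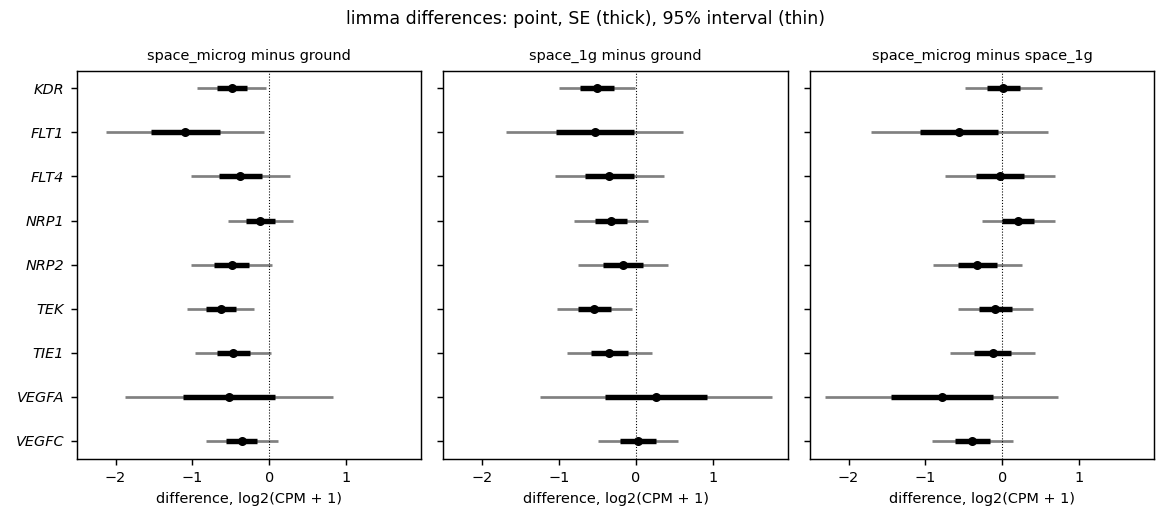
Log2 difference of the 9 genes in the 3 comparisons, on the log2(CPM + 1) scale. Points are limma estimates, thick bars their SE and thin bars the 95% interval. In space_microg against ground all 9 points lie left of 0, and in space_microg against space_1g all 9 intervals include 0.

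With both libraries that stand apart left out, KDR and TEK still had differences below 0 from ground in both flight groups. For space_microg against ground the log2 difference of TEK was then -0.58 (limma unadjusted p = 0.00719, adjusted p = 0.321), that of KDR -0.43 and that of NRP2 -0.51. With its 1 remaining library, space_1g had KDR at -0.77 (limma unadjusted p = 0.00332), TEK at -0.73 (limma unadjusted p = 0.00973) and FLT1 at -0.94, with limma adjusted p of 0.895 to 0.993 over the 9 genes. The lone space_1g library is assumed to vary like the other groups in this fit. TIE1 was at -0.30 in space_microg and -0.31 in space_1g against ground. FLT4, NRP1 and VEGFC were at -0.14, -0.07 and -0.30 in space_microg, and at -0.37, -0.42 and 0.04 in space_1g. For NRP2 in space_1g against ground the value was -0.57. In space_microg against space_1g the signs of FLT1, FLT4, NRP2, TEK and TIE1 turned, at 0.19, 0.24, 0.06, 0.16 and 0.01, while KDR and NRP1 were both at 0.35 and VEGFC at -0.34.

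**Figure D4:**
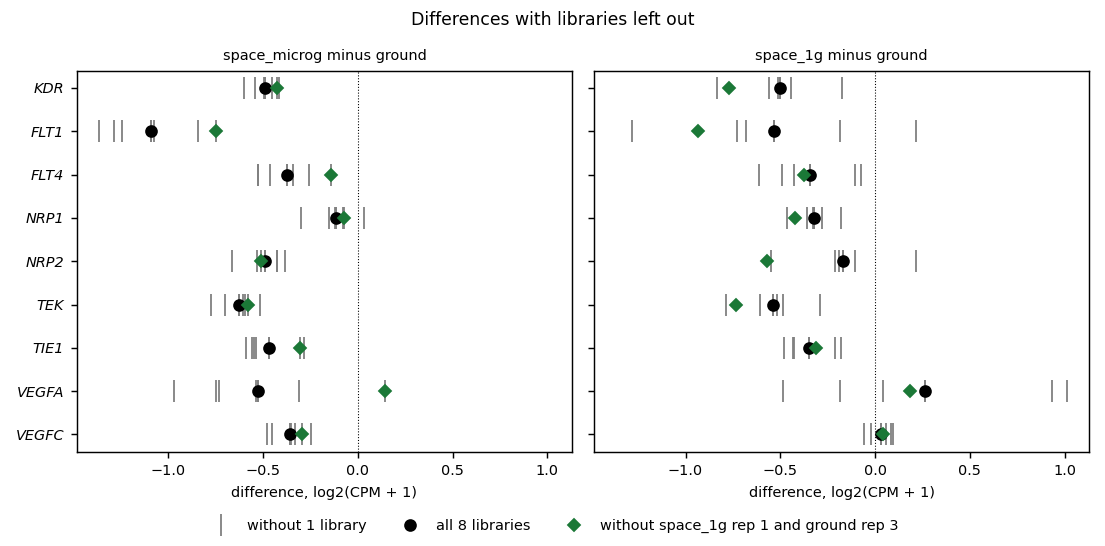
Log2 differences from ground for space_microg (left) and space_1g (right), with all 8 libraries (circles), with each library left out in turn (ticks) and without space_1g replicate 1 and ground replicate 3 (diamonds). The marks of KDR, TEK and TIE1 all lie left of 0 in both panels, while those of VEGFA lie on both sides.

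Within each group the members tended to be high in the same library. In space_microg, replicate 1 was the highest of the group for 9 of 9 members, which was so for 30.0% of all genes. In space_1g, replicate 1 was above replicate 2 for 9 of 9 members, against 50.1% of all genes. Ground replicate 3 was highest for 8 of 9, against 44.0% of all genes, and NRP2 was highest in ground replicate 1. The lowest space_microg library was replicate 3 for KDR, FLT1, NRP1, TEK and VEGFA, and replicate 2 for FLT4, NRP2, TIE1 and VEGFC. FLT1, VEGFA and VEGFC were above all 6 other libraries in both libraries that stand apart, as were 23.6% of all genes, and no member was below them in both.

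**Figure D5:**
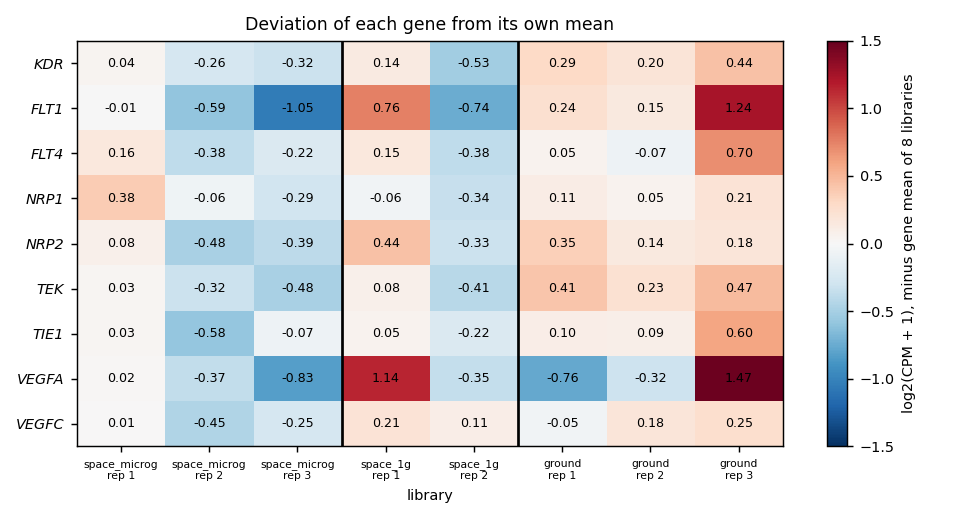
Deviation of each gene from its own mean over the 8 libraries, on the log2(CPM + 1) scale, with libraries in columns and groups divided by black lines. Red is above and blue below the mean. FLT1 and VEGFA are reddest in space_1g replicate 1 and ground replicate 3. KDR and TEK are red in all 3 ground libraries and, more faintly, in replicate 1 of both flight groups.

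Ratios between paired receptors, each per kilobase of exon, are given as descriptions. FLT1 over KDR, the decoy-like over the signalling VEGFA receptor, was 0.138, 0.112 and 0.0840 in space_microg, and 0.223 and 0.122 in space_1g, against 0.138, 0.139 and 0.252 in ground. It was highest in both libraries that stand apart. NRP2 over NRP1 was 0.454, 0.416 and 0.519 in space_microg, and 0.793 and 0.564 in space_1g, against 0.661, 0.595 and 0.550 in ground. All 3 space_microg ratios lay below the other 5, the nearest being 0.519 in space_microg and 0.550 in ground. How often ratios of other gene pairs do so was not examined, and antisense reads were not separated for either gene. TIE1 over TEK was 1.03, 0.859 and 1.37 in space_microg, and 1.01 and 1.18 in space_1g, against 0.828, 0.932 and 1.12 in ground, and the groups overlapped.

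The gene most like TEK over the 8 libraries was KDR, and TEK was the second most like KDR. Likeness was the root-mean-square difference of log2(CPM + 1), each gene centred on its own mean, over 11393 genes with a mean of at least 5 CPM. For KDR, whose own root-mean-square deviation was 0.313, the closest genes were HRH1 (a histamine receptor) at 0.0704, TEK at 0.0881 and ST3GAL1 (a sialyltransferase) at 0.0972. For TEK, with a deviation of 0.347, they were KDR at 0.0881, ADCY7 (an adenylyl cyclase) at 0.0995 and TAF1C (a subunit of an RNA polymerase I factor) at 0.120. FLT1 had a deviation of 0.724, the widest of these 3 genes, and was closest to COL6A3 (a collagen VI chain) at 0.200, SLCO4A1 (an organic anion transporter) at 0.206 and LIPG (endothelial lipase) at 0.219, while TEK came at rank 467 and KDR at rank 607. Among the genes nearest to KDR and to TEK, FLT1 came at ranks 7540 and 6158. The points of this measure are the 8 libraries, 2 of which stand apart, and it has no test.

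Among other ligands and modulators of these receptors, 15 of 21 listed genes were tested and 0 passed in any comparison. Relative to ground, 12 of 15 were lower in space_microg (53% of all genes), with a median log2 difference of -0.42 against -0.02 over all genes. Without the 2 libraries that stand apart it was 13 of 15, with a median of -0.25. Among genes with a mean of at least 5 CPM, the smallest p values there belonged to PLXNA3 and PLXNA1, semaphorin co-receptor chains that partner neuropilins, and to ANGPTL4 and ANGPTL2, secreted relatives of the angiopoietins. SEMA3G, a class 3 semaphorin with a mean of 0.836 CPM, had a smaller one (log2 difference -0.54 ± 0.23, SE; limma unadjusted p = 0.0470, adjusted p = 0.866). ANGPTL2 averaged 18.9 CPM in space_microg, against 28.8 CPM in ground (log2 difference -0.54 ± 0.32, SE), and its groups did not overlap, but the difference was -0.26 without the libraries that stand apart. ANGPTL4 averaged 87.9 CPM in space_microg, against 142.9 CPM in ground (log2 difference -0.77 ± 0.42, SE). Relative to ground, 11 of 15 were lower in space_1g (48.8% of all genes; median -0.17), and 13 of 15 without those libraries (median -0.20). Between the flight groups 9 of 15 were lower in space_microg (53.4% of all genes; median -0.20), and 9 of 15 without those libraries (median -0.01). SEMA3A, a semaphorin that binds NRP1, averaged 41.4 CPM in space_microg and 25.7 CPM in space_1g (log2 difference 0.81 ± 0.51, SE), but the difference was 0.16 without them.

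Signalling genes downstream of the VEGF receptors were near the median of all genes. Of 53 tested, 0 passed, and in space_microg against ground 33 were lower (53% of all genes), with a median of -0.06 against -0.02 over all genes. PLCG1, the phospholipase that KDR recruits, averaged 202 CPM in space_microg, against 274 CPM in ground, and the groups did not overlap (log2 difference -0.44 ± 0.16, SE). PIK3R1, a regulatory subunit of PI 3-kinase, was at -0.46 ± 0.22 (SE) and NFATC3, a calcineurin-regulated transcription factor, at -0.27 ± 0.13 (SE), while NRAS, a small GTPase, was at 0.28 ± 0.14 (SE). In space_1g 30 of 53 were lower than in ground (48.8% of all genes; median -0.03), and the junction protein CDH5 averaged 311 CPM in space_1g, against 472 CPM in ground (log2 difference -0.58 ± 0.25, SE). In space_microg 28 of 53 were lower than in space_1g (53.4% of all genes; median -0.01), and CDC42, a small GTPase, averaged 267 CPM in space_microg and 197 CPM in space_1g (log2 difference 0.43 ± 0.17, SE). Without the libraries that stand apart 32, 31 and 28 of 53 were lower in these 3 comparisons, with medians of -0.09, -0.04 and -0.01.

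For the Tie receptors, 21 signalling genes were tested and 0 passed, with medians of -0.07 for space_microg and -0.01 for space_1g against ground, and of -0.05 between the flight groups. Of them, 13, 11 and 13 were lower in these 3 comparisons, against 53%, 48.8% and 53.4% of all genes. Without the libraries that stand apart it was 6, 10 and 9 of 21, with medians of 0.06, 0.02 and 0.03. PTPRB, the endothelial phosphatase that dephosphorylates TEK, averaged 164 CPM in space_microg and 152 CPM in space_1g, against 245 CPM in ground. Its log2 difference from ground was -0.45 ± 0.33 for space_microg and -0.55 ± 0.37 for space_1g (SE), and the groups overlapped, with 228, 377 and 129.7 CPM in the ground libraries. Without the libraries that stand apart PTPRB was at -0.84 for space_microg (limma adjusted p = 0.286) and at -0.88 for space_1g, with its 1 remaining library. FOXO1, the transcription factor that TEK signalling restrains, averaged 54.5 CPM in space_microg and 53.6 CPM in space_1g, against 48.7 CPM in ground. Of 14 genes that FOXO1 regulates in endothelium, 8 were lower in space_microg and 10 in space_1g against ground, against 53% and 48.8% of all genes, with medians of -0.17 and -0.08, and 0 passed. The counts were the same without the libraries that stand apart, with medians of -0.12 and -0.29. Between the flight groups 7 of 14 were lower in space_microg (53.4% of all genes; median -0.0024), and 3 of 14 without those libraries (median 0.10). BCL6, a transcriptional repressor among them, averaged 30.4 CPM in space_microg, against 44.1 CPM in ground (log2 difference -0.52 ± 0.27, SE), without overlap.

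Genes that VEGF induces in endothelial cells were lower in space_microg than in ground for 22 of 30 tested (53% of all genes), with a median of -0.26, and 0 passed. Without the libraries that stand apart 15 of 30 were lower, with a median of -0.0089. DLL4, the Notch ligand of tip cells that VEGF induces, averaged 3.56 CPM in space_microg, against 6.99 CPM in ground, without overlap (log2 difference -0.82 ± 0.22, SE; limma unadjusted p = 0.00496, adjusted p = 0.866). Its space_1g libraries, at 4.16 and 4.95 CPM, also lay below all ground libraries (log2 difference -0.53 ± 0.25, SE). EGR1, an immediate early transcription factor, averaged 24.6 CPM in space_microg, against 17.2 CPM in ground (log2 difference 0.45 ± 0.26, SE), with overlap. In space_1g 15 of 30 were lower than in ground (48.8% of all genes; median 0.01), and 20 of 30 without the libraries that stand apart (median -0.12). Between the flight groups 23 of 30 were lower in space_microg (53.4% of all genes), with a median of -0.21. Without those libraries it was 10 of 30 (50.8% of all genes), with a median of 0.11. Over the list, the mean standardised level was 0.477 in space_1g replicate 1 and 0.702 in ground replicate 3, above the -0.473 to 0.108 of the other 6 libraries.

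Endothelial transcription factors and the hypoxia response, both known regulators of these genes, showed 0 passes as well. Of 31 transcription factors, 19 were lower in space_microg than in ground (median -0.16), 16 in space_1g than in ground (median -0.09) and 19 in space_microg than in space_1g (median -0.11), against 53%, 48.8% and 53.4% of all genes. Without the libraries that stand apart it was 23, 23 and 11 of 31, with medians of -0.13, -0.16 and 0.06. KLF4, a flow-responsive factor, averaged 52.7 CPM in space_microg, against 114 CPM in ground (log2 difference -0.85 ± 0.65, SE), with overlap. Ground replicate 3 had 221 CPM of KLF4, against 70.7 and 49.0 CPM in the other ground libraries, and without the libraries that stand apart the difference was -0.22. ERG, the ETS factor that maintains endothelial identity, averaged 94.9 CPM in space_microg and 75.3 CPM in space_1g, against 102 CPM in ground. The ground libraries had 120, 133 and 52.4 CPM of ERG, the last in replicate 3. The log2 difference of space_1g from ground was -0.33 ± 0.36 (SE), and -0.57 without the libraries that stand apart. Of 30 hypoxia genes, 17 were lower in space_microg than in ground (median -0.07), 11 in space_1g than in ground (median 0.05) and 17 in space_microg than in space_1g (median -0.01), against the same shares of all genes. Without those libraries it was 15, 14 and 21 of 30, with medians of -0.04, 0.08 and -0.12. Among the hypoxia genes, ANKZF1 averaged 35.5 CPM in space_microg, against 47.5 CPM in ground (log2 difference -0.41 ± 0.15, SE), without overlap. BNIP3 went the other way, at 70.3 CPM in space_microg, against 57.1 CPM in ground (log2 difference 0.29 ± 0.18, SE), also without overlap. Without the libraries that stand apart, ANKZF1 was at -0.36 and BNIP3 at 0.35. NDRG1 and CA12, both induced by hypoxia, averaged 153 and 12.0 CPM in space_microg, against 271 and 24.1 CPM in ground. Their log2 differences were -0.78 ± 0.42 and -0.82 ± 0.45 (SE), and their groups overlapped. Both were highest among ground libraries in replicate 3, and without the libraries that stand apart the differences were -0.52 and -0.43.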

How the data were processed

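RNA from 8 libraries (3 space_microg, 2 space_1g, 3 ground) was prepared with a stranded total RNA kit after removal of ribosomal RNA, per the labels' protocols. The submitters' processing notes name STAR 2.5.3, featureCounts, edgeR, CASAVA 1.8.2 and FastQC, without roles, beside hg38 and GRCh38. Strand handling was not given in the sources used here. The deposited values, CPM per the labels, are a scaled signal for each gene whose columns sum to 966156 to 1061177, so they are not plain CPM. The factor behind this is not named in the labels. Dividing each value by that of 1 read gave whole numbers within 1e-06 read for 100% of values, so reads were recovered for the count tests.

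Values were analysed as log2(CPM + 1) for the 16103 genes with 1 CPM or more in 2 or more libraries, leaving out 50. A difference is on this scale, which understates changes of low genes. All 8 libraries entered one limma 3.58.1 fit (mean trend, no covariates, two-sided tests, R 4.3.3), with Benjamini-Hochberg adjustment at 0.05 over all genes tested. It had been planned for plain CPM and was kept for the scaled values. edgeR 4.0.16 (quasi-likelihood) and DESeq2 1.42.0 on the recovered reads, other scalings, filters and pseudocounts, left-out libraries, a replicate block and array weights were alternatives. Removal of the GC content and length trend, and the gene lists without the libraries that stand apart, were added after seeing the data. The fit was tested on simulated data that held no libraries standing apart. That test does not show how well the fit detects differences in these data. Limma calls at an adjusted p under 0.05 were the rule for "passed".

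Gene positions and exon lengths are from GENCODE annotation of GRCh38, and promoters from RefSeq. Named genes were all members, up to 4 genes per list with the smallest p in the comparison described and a mean of at least 5 CPM, and the 3 genes most like KDR, FLT1 and TEK. FOXO1, ERG, VEGFB, PGF and PDPN were named for their role, and SEMA3G for its p after its values were seen. The members and lists were chosen with earlier results of these data known.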

Additional observations from a re-analysis of the deposited data

How the results depend on the processing

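Over 22 alternatives no member passed in any comparison, except TEK under array weights, where 1 member and 615 genes passed in space_microg against ground. That fit stopped before its convergence tolerance was reached. DESeq2 called 3 genes in that comparison, none a member, against 0 with limma (696 genes at an unadjusted p under 0.05) and 0 with edgeR (741 genes). In space_microg against ground, the direction of KDR, FLT1, FLT4, NRP2, TEK, TIE1 and VEGFC stayed lower under every alternative, and so did that of KDR, FLT4, NRP1, TEK and TIE1 in space_1g against ground. Among the member values under alternatives other than leaving out 1 library, 361 kept their direction and their side of the threshold, 1 passed and 16 reversed. Some of these alternatives, such as another filter, leave the log2 difference as it was, so its direction could not change. In space_microg against ground, array weights gave NRP1 0.018 and VEGFA 0.49, and leaving out both libraries that stand apart gave VEGFA 0.14. In space_1g against ground, quantile normalization gave VEGFC -0.0046. In space_microg against space_1g, quantile normalization gave KDR -0.0061 and FLT4 0.029, DESeq2 gave KDR -0.0099, and array weights gave FLT4 0.066 and TEK 0.0050. Leaving out both libraries that stand apart gave FLT1 0.19, FLT4 0.24, NRP2 0.060, TEK 0.16 and TIE1 0.0082, and removing the GC and length trend gave FLT4 0.29 and TIE1 0.13. The cause was not tested. With single libraries left out, 19 of the member values reversed and 197 did not. A library of the group outside a comparison does not enter its log2 difference, so leaving it out could not reverse the sign. That part of the 197 was fixed in advance. The ranges with single libraries left out were -0.30 to 0.032 for NRP1 and -0.97 to 0.14 for VEGFA in space_microg against ground. In space_1g against ground they were -1.28 to 0.22 for FLT1, -0.55 to 0.22 for NRP2, -0.49 to 1.01 for VEGFA and -0.060 to 0.094 for VEGFC. In space_microg against space_1g they were -0.32 to 0.35 for KDR, -1.31 to 0.19 for FLT1, -0.30 to 0.24 for FLT4, -0.71 to 0.060 for NRP2, -0.34 to 0.16 for TEK and -0.26 to 0.061 for TIE1. In space_microg against ground they were -0.77 to -0.52 for TEK and -0.60 to -0.42 for KDR. The replicate number as a block made 0 calls (TEK -0.63 in space_microg against ground, adjusted p = 0.679; -0.57 in space_1g against ground). Same-numbered libraries correlated at -0.68 to 0.68 after removal of the group means. The deviations of the 2 space_1g libraries then mirror each other, so this check cannot decide whether the numbers pair the samples.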
